A study of Rattus norvegicus with 399 samples.

Results

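The genes described here encode kinases of the mitogen-activated protein (MAP) kinase cascades, the phosphoinositide 3-kinases (PI3K) and Akt, AMP-activated kinase (AMPK), cyclic AMP-dependent kinase (PKA), protein kinase C (PKC) and ribosomal S6 kinase, with their regulatory subunits. They were taken by symbol, as the probes whose gene name starts with Mapk, Map2k, Map3k, Map4k, Pik3, Akt and a digit, Prka, Prkc, Prkd or Rps6k. The rule found 36 probes for 36 genes among 2654 probes for 2603 gene symbols. Of these, 11 symbols started with Mapk, 9 with Prka, 7 with Pik3, 4 with Prkc, 2 with Akt and 1 each with Map2k, Map3k and Rps6k, and none with Map4k or Prkd. Each transcript was read by a single TempO-Seq probe of the Rat S1500+ panel, a targeted assay in which oligonucleotides that bind side by side on a transcript are ligated, amplified and counted. The animals were female Sprague-Dawley rats aged 9 weeks that had been given 1,2-dichlorobenzene (1,2-DCB, chlorine atoms on neighbouring carbons of the ring) at 1, 10, 30, 100, 250 or 500 ppm, or 1,4-dichlorobenzene (1,4-DCB, chlorine atoms opposite each other) at 1, 10, 50, 150, 400 or 800 ppm. Each compound had its own controls at 0 ppm, and heart, kidney, liver, lung and ovary of the same rats were collected on study day 5. Groups held 10 control and 5 exposed rats for most tissues. No strain, transgene or other treatment apart from these is given in the labels. Nothing in the labels gives the route or the daily length of exposure.

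MAP kinases (the ERK, JNK and p38 families) sit at the end of relays of kinases that carry signals from growth factor receptors and cell stress to transcription factors and to further kinases such as MAPKAP kinase 2. PI3K pairs a catalytic with a regulatory subunit at activated receptors and makes the lipid that recruits Akt, through which insulin acts on hepatocyte glucose and lipid metabolism. PKA and AMPK carry hormonal and energy signals in liver: PKA passes on glucagon, and AMPK restrains biosynthesis when ATP is low. The activity of all of these enzymes is set mainly by phosphorylation and binding partners. What was measured here is the abundance of their messages, which is not their activity.

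Of 399 libraries, 390 were used, and their totals, in units of 1e6 counts, ran from 1.2 to 69.8. Median totals in the same unit were 12.8 in heart, 27.4 in kidney, 41.9 in liver, 19.9 in lung and 20.1 in ovary. These are totals of the adjusted counts and do not give the depth of reading. The counts of some probes share a common divisor across libraries. With it divided out, the total of 1,2-DCB control rat F1 went from 37.4 to 5.95 in liver and from 8.55 to 5.27 in heart. The scale by library totals alone, used below, rests on the adjusted totals. In control tissue the defining markers followed the labels: summed hepatocyte markers were at 1183000 CPM or more in liver and at 3711 or less elsewhere, cardiomyocyte markers at 199700 or more in heart and at 34.7 or less elsewhere, and ovarian markers at 996 or more in ovary and at 24.2 or less elsewhere (CPM, counts per 1e6 counts of the TMM-scaled library, here with 1 scaling across tissues, so that sums are not shares of the reads). Kidney rested on 1 of 6 tubule markers (Aqp2, median 4.57 CPM in kidney and 0 elsewhere), and none of the 6 lung epithelial markers was on the panel. Levels below are CPM within 1 tissue and compound, comparable for 1 probe across rats but not between probes. Prkab1, an AMPK beta subunit, was at 0 in all 390 libraries, and Rps6ka1, a ribosomal S6 kinase, never exceeded 15 counts. After a filter on low counts, 33 kinase probes were tested in heart, 35 (1,2-DCB) and 34 (1,4-DCB) in kidney, 29 and 30 in liver, and 34 in lung and in ovary. A probe is said to have risen or fallen where edgeR's quasi-likelihood test gave a Benjamini-Hochberg adjusted p below 0.05 over all probes of that comparison.

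Across the 10 comparisons of a top concentration with controls, there were 39 such calls of kinase probes, 17 rises and 22 falls, of which 7 exceeded 2-fold. The number above 2-fold was not taken over all probes. Liver exposed to 500 ppm of 1,2-DCB held 17 of them and liver exposed to 800 ppm of 1,4-DCB held 5. Pik3r1, the main regulatory subunit of class I PI3K, changed in 4 of the 10 comparisons, the highest number for any kinase probe. How many of all probes changed in as many was not counted, so this number does not set Pik3r1 apart from the panel. Mapk14 (p38 alpha), Mapkapk2, Prkag1 and Prkcd each changed in 3, and 13 tested kinase probes changed in none. The map of changes at the top concentrations shows most calls in the liver column of 1,2-DCB. Calls over all probes were most frequent there too, at 67.8% of the probes tested, against 2.91% to 34.9% in the other 9 comparisons. Of the kinase probes tested, 58.6% were called there and 2.94% to 17.1% in the other 9. The counts above therefore describe the kinase probes only.

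**Figure D1:**
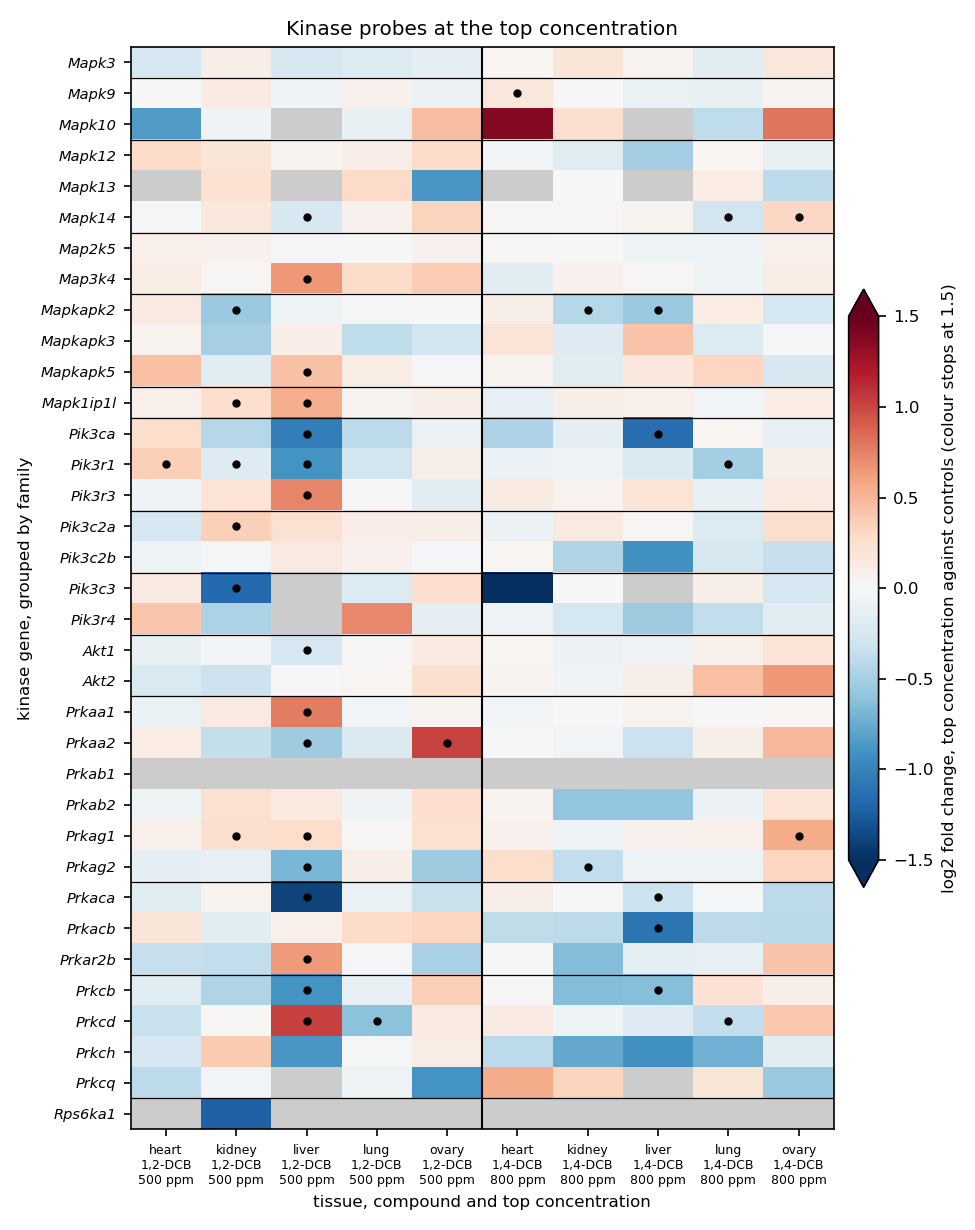
Log2 fold change of 35 of the 36 kinase probes (rows, grouped by family) at the top concentration against controls in each tissue and compound (columns), with colour from blue (lower) to red (higher), black points for adjusted p below 0.05 and grey for probes not tested. The 38 black points lie mostly in liver, with 16 for 1,2-DCB and 5 for 1,4-DCB.

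In liver at 500 ppm of 1,2-DCB, 9 of 29 tested kinase probes rose and 8 fell. Over all probes tested in that comparison 67.8% were called, 35% rising and 32.7% falling, so the kinases' share of 58.6% was not above that background. The median change was 0.06 over the tested kinase probes and 0.035 over all probes (log2). By the rule for names, a probe had to reach a group mean of 20 CPM to be named in liver, which holds for Prkaca, Pik3r1, Mapk14 and Mapk1ip1l. Probes called at a lower concentration were named too, which adds Prkag2. The other members named for liver were chosen after their values were seen, most of them because they lie below that level.

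Prkaca, a catalytic subunit of PKA, had the largest fall. Its level in control livers was 18.7 CPM in the lowest, 21.2 in the median and 41.2 in the highest rat. The 5 exposed livers were at 10.1, 8.99, 9.72, 8.75 and 8.84 CPM, all below every control. The change was -1.39 ± 0.15 (log2 fold change ± SE, adjusted p = 3.29e-10). Another catalytic subunit, Prkacb, was not called there, whereas the regulatory subunit Prkar2b rose by 0.64 ± 0.27 (adjusted p = 0.0337), from 18 to 44 counts per control library to 24 to 90 counts. The Prkar2b call was lost without rat F605 (0.39, adjusted p = 0.217), rat F604 or either of controls F4 and F8.

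Pik3r1 was at 65.9, 78.9 and 96.5 CPM in the lowest, median and highest control liver. The exposed livers were at 38.2, 37.3, 35.1, 46.2 and 53.01 CPM, again with no overlap, and the change was -0.90 ± 0.13 (adjusted p = 1.06e-07). Pik3r3, a second regulatory subunit, moved the other way, from a mean of 1.19 ± 0.33 CPM (SD, n = 10) to 2.0 ± 0.61 CPM (n = 5), a change of 0.74 ± 0.18 (adjusted p = 0.00058), with 3 of 5 exposed livers above all controls. Pik3ca, the alpha catalytic subunit, fell by 1.04 on the log2 scale (adjusted p = 0.00431), but on 6 to 24 counts per control library and 5 to 13 per exposed library. Akt1, the kinase that acts below PI3K, went from 19.9 ± 3.1 to 16.6 ± 1.39 CPM, a change of -0.25 ± 0.10 (adjusted p = 0.0184).

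The subunits of AMPK went in both directions. Prkag2, a gamma subunit that binds adenine nucleotides, was at 10.1, 11.6 and 14.2 CPM in the lowest, median and highest control liver and at 7.28, 6.66, 6.91, 8.6 and 7.81 CPM in the exposed livers. All 5 were below every control, and the change was -0.69 ± 0.10 (adjusted p = 5.66e-08). The gamma subunit Prkag1 rose by 0.26 (adjusted p = 0.0108). Of the catalytic subunits, Prkaa1 rose from 4.12 ± 0.91 to 7.02 ± 1.33 CPM, by 0.77 ± 0.14 (adjusted p = 7.02e-06) with all 5 exposed livers above all controls. Prkaa2 fell by 0.54 (adjusted p = 0.0129), with 3 of 5 exposed livers below all controls, and was not called without rat F605 (-0.41, adjusted p = 0.0717) or rat F602 (-0.43, adjusted p = 0.0634).

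Among the PKC genes, Prkcd, a form that responds to diacylglycerol without calcium, had the largest rise of all kinase probes. Control livers were at 0.45, 0.949 and 1.01 CPM (lowest, median, highest) and the exposed livers at 1.79, 1.63, 1.69, 1.79 and 1.62 CPM. The groups did not overlap and the change was 1.02 ± 0.22 (adjusted p = 7.22e-05), on 17 to 62 counts per control library and at least 58 per exposed library. Prkcb, a calcium-dependent form abundant in leukocytes, fell from 2.45 ± 0.27 to 1.32 ± 0.35 CPM, by 0.90 on the log2 scale (adjusted p = 3.25e-05). Beside that fall, summed pan-leukocyte markers went from 2.39 to 3.49 CPM in controls to 0.834 to 1.75 in exposed livers, with 3 of 3 tested markers falling. Macrophage markers went from 35.4 to 57.6 down to 20.8 to 29.3 CPM (5 of 5 fell) and lymphocyte markers from 3.9 to 6.08 down to 2.1 to 3.42 CPM (3 of 4 fell). In whole liver, fewer cells of a type and less RNA per cell cannot be told apart, and the part of these markers in the Prkcb result was not tested.

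The MAP kinases themselves moved little. Mapk3 was not called. Mapk14 went from 36.6 ± 4.54 to 31.1 ± 1.55 CPM, a change of -0.24 ± 0.09 (adjusted p = 0.0217) with no exposed liver below all controls. Upstream, Map3k4, which relays stress signals toward p38 and JNK, rose from 2.23 ± 0.37 to 3.51 ± 0.52 CPM, by 0.65 ± 0.13 (adjusted p = 5.02e-05). All 5 exposed livers were above all controls. Downstream, Mapkapk5 rose by 0.44 (adjusted p = 0.043) on 22 to 65 counts per control library, a call lost without rat F604 (0.29, adjusted p = 0.224) or any one of controls F2, F4, F6, F7 and F8. Mapk1ip1l, taken in by the rule on symbols and not itself a kinase, was at 12.5, 17.2 and 19.6 CPM in the lowest, median and highest control and at 21.8, 26.1, 22.98, 24.1 and 27.1 CPM in exposed livers. It rose by 0.54 ± 0.09 (adjusted p = 2.3e-06), with no overlap.

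All of these changes are relative to the TMM scale, on which the median probe stays near 0. Where counts were scaled by library totals alone, the median of all probes at 500 ppm shifted by 0.401 (log2) and the kinase calls became 15 rises and 4 falls. On that scale 71.9% of all called probes rose, against 51.7% on the TMM scale. Prkaca (-0.996), Pik3r1 (-0.50), Prkag2 (-0.28) and Prkcb (-0.49) still fell there. Akt1 (0.14, adjusted p = 0.289) and Mapk14 (0.17, adjusted p = 0.174) changed sign and were not called, and Prkaa2 (-0.14) and Pik3ca (-0.63) were no longer called. Without rat F601 neither Akt1 (-0.20, adjusted p = 0.0774) nor Mapk14 (-0.21, adjusted p = 0.0639) was called on the TMM scale, and the same held for both without rat F605 and for Mapk14 without rat F602.

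Prkaca, Pik3r1 and Prkag2 were also the only kinase probes called at 250 ppm of 1,2-DCB in liver, where all 3 fell. There 24.8% of all probes were called, 13.5% rising and 11.2% falling. Both concentrations share their controls. Prkag2 was at 8.0, 8.43, 7.9, 8.04 and 9.34 CPM at 250 ppm, below every control, and had changed by -0.53 ± 0.10 (adjusted p = 4.47e-05). Prkaca was at 17.3, 16.1, 22.6, 17.9 and 17.03 CPM, with 4 of 5 rats below all controls and a change of -0.42 ± 0.15 (adjusted p = 0.0313). Pik3r1 was at 66.5, 63.5, 66.8, 50.9 and 63.02 CPM, with 3 of 5 below all controls and a change of -0.33 ± 0.13 (adjusted p = 0.0477). The Pik3r1 call was lost without any 1 of the 5 exposed rats (-0.26, adjusted p = 0.183, without F504) or without any of controls F1, F3, F5, F6, F9 and F10. The Prkaca call was lost without any of rats F501, F502 (-0.37, adjusted p = 0.101), F504 and F505, and without control F5 or F8 (-0.30, adjusted p = 0.0767). At 100 ppm the mean levels were 10.8 CPM for Prkag2, 19.4 for Prkaca and 71.7 for Pik3r1, and none was called. Prkcd, by contrast, was at a mean of 0.84 CPM in controls and was called at 500 ppm alone.

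**Figure D2:**
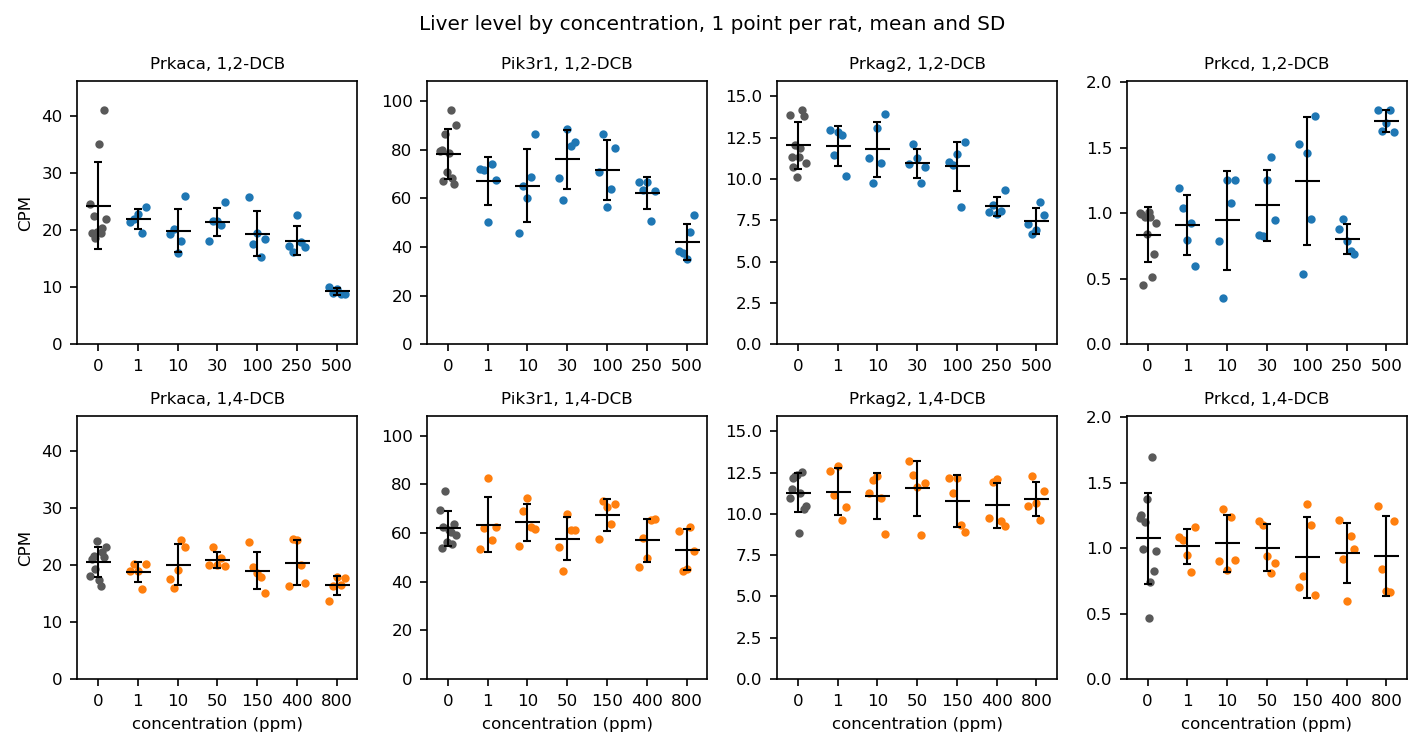
Liver level (CPM, linear axis from 0) of Prkaca, Pik3r1, Prkag2 and Prkcd against concentration (ppm, evenly spaced groups) for 1,2-DCB (upper row, blue) and 1,4-DCB (lower row, orange), with 1 point per rat, controls in grey, and mean ± SD in black. At 500 ppm of 1,2-DCB all 5 rats lie below every control for the first 3 genes and above every control for Prkcd, while at 800 ppm of 1,4-DCB each of the 4 genes overlaps its controls.

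The 250 bases before a RefSeq transcript start of these genes (assembly GRCr8) are shown because Prkaca, Pik3r1 and Prkag2 fell together and Prkcd had the largest rise. Capitals mark matches on either strand to 7 motifs, with overlapping matches merged. The motifs were GGGCGG, which Sp1 binds; the CCAAT box, searched as CCAAT; TGACGTCA, the cyclic AMP response element; TGACNNNGC, the core of the antioxidant response element; the AP-1 site, searched as TGANTCA; the E-box, searched as CACGTG; and the FOXO site, searched as TGTTTAC. The Prkaca window is chr19:41083190-41083439 on the minus strand, that of Pik3r1 chr2:34697661-34697910 on the minus strand and that of Prkcd chr16:5805840-5806089 on the minus strand. Prkag2 has a start at chr4:10744445-10744694 on the plus strand (start 1) and another at chr4:10939230-10939479 on the plus strand (start 2). The transcript starts used are the outermost ones of the gene for Prkaca, Pik3r1 and Prkag2 start 1, whereas that of Prkcd lies 283 bases inside the gene's RefSeq span and Prkag2 start 2 lies 194785 bases inside.
Prkaca: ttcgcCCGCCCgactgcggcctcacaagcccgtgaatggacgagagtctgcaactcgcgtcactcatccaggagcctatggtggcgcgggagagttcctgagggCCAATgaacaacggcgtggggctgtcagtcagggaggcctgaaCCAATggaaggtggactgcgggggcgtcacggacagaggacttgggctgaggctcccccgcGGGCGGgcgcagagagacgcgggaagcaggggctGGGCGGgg
Pik3r1: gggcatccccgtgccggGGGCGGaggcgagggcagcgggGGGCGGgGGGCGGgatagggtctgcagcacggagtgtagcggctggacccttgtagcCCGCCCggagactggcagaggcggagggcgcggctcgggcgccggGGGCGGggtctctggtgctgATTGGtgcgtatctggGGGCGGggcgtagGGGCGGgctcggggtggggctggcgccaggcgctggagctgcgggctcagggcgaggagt
Prkag2 start 1: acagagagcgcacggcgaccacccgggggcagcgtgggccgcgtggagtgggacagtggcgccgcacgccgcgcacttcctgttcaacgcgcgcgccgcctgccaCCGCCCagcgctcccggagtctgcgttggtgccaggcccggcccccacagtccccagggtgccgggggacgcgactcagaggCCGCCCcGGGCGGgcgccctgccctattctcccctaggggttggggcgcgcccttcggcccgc
Prkag2 start 2: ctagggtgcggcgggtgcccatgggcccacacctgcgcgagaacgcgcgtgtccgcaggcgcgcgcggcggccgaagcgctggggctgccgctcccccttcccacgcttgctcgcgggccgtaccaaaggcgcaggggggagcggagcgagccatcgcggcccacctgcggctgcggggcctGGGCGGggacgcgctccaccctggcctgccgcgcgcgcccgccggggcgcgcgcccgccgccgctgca
Prkcd: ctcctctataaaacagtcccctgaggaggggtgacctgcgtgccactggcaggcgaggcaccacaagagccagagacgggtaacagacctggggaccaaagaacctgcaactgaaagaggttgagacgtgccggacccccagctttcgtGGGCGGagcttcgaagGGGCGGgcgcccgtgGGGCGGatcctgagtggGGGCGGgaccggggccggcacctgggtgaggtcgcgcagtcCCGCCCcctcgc
All 5 windows hold the Sp1 motif, with 7 matches in Pik3r1, 5 in Prkcd and 3 in Prkaca, and the CCAAT box stands in Prkaca and Pik3r1. None of the other 5 motifs is in these windows, which says only that their letters are not in these 250 bases. Of the 36 kinase genes 29 had an entry, with 30 windows, of which 9 end at the gene's outermost start and 21 belong to a transcript start inside the gene's span. The Sp1 motif was in 22 of the 30 windows and in 30.5% of all 33469 windows, the CCAAT box in 5 and in 34%, and the cyclic AMP response element in 1 (Mapk10) and in 1.59%. The antioxidant core was in 2 windows (10.1% of all), the E-box in 2 (5.59%), the FOXO site in 1 (3.21%) and the AP-1 site in 0 (6.34%). The median GC content was 66.8% in the kinase windows and 51.2% in all windows.

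The other genes of these pathways were followed with lists of receptors, adaptors, feedback genes and targets, described below for liver only. List genes were called elsewhere too, with both compounds, and those named here are only examples. At 500 ppm of 1,2-DCB Myc rose (0.84) and the receptor gene Met fell (-0.43) in lung, where 4.16% of all probes rose and 4.68% fell. In kidney Igfbp1 (0.77) and Kit (0.52) rose and Gadd45g (-0.998) and Dusp6 (-0.56) fell, where 8.72% rose and 7.7% fell. At 800 ppm of 1,4-DCB the immediate early genes Ier3 (0.99), Junb (0.96), Ier2 (0.67), Myc (0.36) and Fosl1 (1.65) rose in lung, where 2.87% of all probes rose. Fos, Fosb, Egr1, Egr2, Jun and Atf3 were not called there. In ovary at 800 ppm of 1,4-DCB Fosl1 (-5.82), Egr2 (-4.25), Ier3 (-1.16) and Myc (-0.71) fell, where 4.23% fell. The other immediate early genes tested in those ovaries were not called. Control ovaries varied widely in Fosl1 (238.9 ± 397.8 CPM). In liver at 500 ppm of 1,2-DCB, none of these lists had a share of called genes above the 67.8% of all probes (35% rising, 32.7% falling), so the counts that follow describe their members only. There 4 of 6 tested growth factor receptors fell and none rose (median -0.68). Among them were Met, the receptor of hepatocyte growth factor, with 36.9 ± 5.11 CPM in controls and 20.7 ± 2.49 in exposed livers (-0.83 ± 0.09), and Fgfr4, a receptor of the fibroblast growth factors that restrain bile acid synthesis (-0.73 ± 0.13). Of 6 Ras and adaptor genes 3 rose and none fell, led by the adaptor Shc1 (22.8 ± 3.03 to 31.4 ± 5.4 CPM, 0.46 ± 0.09). Both called MAP kinase phosphatase genes rose, among 4 tested. They were Dusp5, an ERK phosphatase (0.324 ± 0.108 to 1.55 ± 1.19 CPM, 2.24 ± 0.30), and Dusp3 (0.54 ± 0.08). Of 8 immediate early genes 3 rose and 1 fell, led by Fosl1, an AP-1 subunit, from 0.178 ± 0.138 to 56.3 ± 54.7 CPM (8.29 ± 0.53) and by Atf3 (4.12 ± 0.48), with Ier2 falling by 0.53.

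Of 14 tested genes of the Akt and mTOR pathway 7 rose and 2 fell, beside 67.8% of all probes called, with a median of 0.58 (0.035 over all probes). Trib3, a pseudokinase that binds Akt, rose from 0.522 ± 0.148 to 6.85 ± 3.49 CPM (3.69 ± 0.25), and Rps6, the ribosomal protein that S6 kinases phosphorylate, from 4111 ± 242.5 to 6486 ± 508 CPM (0.66 ± 0.06). Foxo4, a transcription factor that Akt phosphorylates, and Sesn1 were the falls (-0.21 and -1.33). Among 6 stress genes upstream of MAP kinases 3 rose and 1 fell: Gadd45a rose by 1.20 and Gadd45g, from the same family, fell by 1.54. Of 6 partners of PKA, AMPK and calcium signalling, Creb1 (0.52), the transcription factor that PKA phosphorylates, and Atf1 (0.45) rose, while Plcb1, a phospholipase that yields diacylglycerol, fell by 0.84. Only 1 PI3K antagonist was tested and it was not called. Beside these changes, 4 of 6 hepatocyte markers fell and 1 rose, with sums of 209700 to 302000 CPM in controls and 267900 to 355800 in exposed livers, and 3 of 4 proliferation markers rose (8.872 to 14.38 and 19.72 to 27.92 CPM). The part of these markers was not tested.

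In liver at 800 ppm of 1,4-DCB, 5 of 30 tested kinase probes fell and none rose, where 34.9% of all probes were called, 19.5% rising and 15.4% falling. Their median change was -0.12, against -0.001 over all probes. Prkaca was at 16.4, 21.3 and 24.2 CPM in the lowest, median and highest control and at 13.7, 16.3, 17.9, 16.5 and 17.8 CPM in exposed livers. It changed by -0.32 ± 0.11 (adjusted p = 0.0204), with 2 of 5 below all controls, and the call was lost without rat F601 (-0.26, adjusted p = 0.088). Mapkapk2, which p38 activates, went from 4.25 ± 0.66 to 2.91 ± 0.41 CPM (-0.55 ± 0.13, adjusted p = 0.000859), with 4 of 5 below all controls. Prkcb was at 2.41 ± 0.18 CPM in controls and at 1.07, 1.89, 1.78, 1.04 and 1.99 CPM in exposed livers, all below every control (-0.64 ± 0.20, adjusted p = 0.00939), and without rat F604 it was not called (-0.52, adjusted p = 0.0558). Summed macrophage markers went from 42.2 to 51.4 CPM in controls to 29.7 to 40.2 in exposed livers (3 of 5 fell), and 0 of 3 pan-leukocyte markers was called. Their part in the Prkcb result was not tested.

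Prkacb fell by 1.098 (adjusted p = 0.00984) and Pik3ca by 1.15 (adjusted p = 0.0426), on 6 to 41 and 3 to 13 counts per exposed library. The Pik3ca call was lost without rat F601 (-0.97, adjusted p = 0.121), F602, F603 or F604 and without any of controls F2, F6, F8, F9 and F10. With library totals alone as the scale, Prkaca (-0.22, adjusted p = 0.175), Prkcb (-0.53, adjusted p = 0.0628) and Pik3ca (-1.06, adjusted p = 0.0699) were not called and 2 falls were left, while 71.6% of all called probes rose, against 55.8% on the TMM scale. In the pathway lists, to be read beside 34.9% of all probes called (19.5% rising, 15.4% falling), 4 of 6 receptors fell, among them Fgfr4 by 0.70 and Kdr, the vascular endothelial growth factor receptor, by 0.61 on the log2 scale. Of 9 immediate early genes 1 rose (Atf3, 1.08) and 4 fell, among them Egr1 from 10.96 ± 9.8 to 2.46 ± 0.55 CPM (-2.15 ± 0.53). Of 14 genes of the Akt and mTOR pathway 3 rose and 3 fell, with Trib3 at 1.40 and Igfbp1, a liver target of FOXO factors, at -2.15. None of the 6 partners of PKA, AMPK and calcium signalling was called. No kinase probe was called at 400 ppm or below, where 6.44% of all probes were called at 400 ppm and 0 at each lower concentration.

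In kidney at 500 ppm of 1,2-DCB, 3 of 35 kinase probes rose and 3 fell, beside 16.4% of all probes (8.72% rising, 7.7% falling). Mapkapk2 fell from 46.5, 61.99 and 75.1 CPM (lowest, median and highest of 9 controls) to 45.7, 38.4, 35.7, 33.9 and 50.4 CPM (-0.56 ± 0.13, adjusted p = 0.0017). Pik3r1 was at 364 to 417 CPM in controls and at 348, 347, 360, 361 and 334 CPM in exposed kidneys. This small shift left all 5 below every control (-0.20 ± 0.05, adjusted p = 0.00978). Prkag1 (0.24 ± 0.07) and Mapk1ip1l (0.25 ± 0.07) rose, each with all 5 exposed kidneys above all controls, and Pik3c2a, a class II PI3K, rose by 0.35 ± 0.09 with 4 of 5 above. With library totals alone as the scale, on which the median probe shifted by -0.115, none of those 3 rises was called and the kinase calls became 0 rises and 5 falls. On that scale 22.7% of all called probes rose, against 53.1% on the TMM scale. Pik3c3, the class III PI3K of autophagy, fell by 1.16 (adjusted p = 0.0354), on 35 to 68 counts per control and 10 to 37 per exposed library, and was not called without rat F605 (-0.96, adjusted p = 0.12), F602 or F604 or without control F2 or F9. Cell type markers moved beside these changes: 2 of 4 pan-leukocyte markers fell (sums of 14.98 to 23.02 CPM in controls and 8.378 to 13.21 in exposed kidneys), as did 1 of 5 lymphocyte and 1 of 5 macrophage markers. Of the fibroblast and matrix markers 2 of 5 fell (681.8 to 1121 CPM and 292.2 to 489.8 CPM). So did 1 of 4 endothelial ones (median sums of 417.5 CPM and 228.7 CPM) and 2 of 4 proliferation ones. Of 4 neutrophil markers Lcn2 rose (0.86), while S100a8, S100a9 and Fcnb were not called. The part of the cell type markers in the kinase changes was not tested.

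At 800 ppm of 1,4-DCB in kidney 2 of 34 kinase probes fell, beside 5.03% of all probes (2.37% rising, 2.67% falling). Mapkapk2 was one of them here too, from 44.98, 54.99 and 62.3 CPM (lowest, median, highest of 10 controls) to 45.3, 43.8, 42.9, 27.2 and 37.2 CPM, with 4 of 5 below all controls (-0.43 ± 0.11, adjusted p = 0.0104). Without rat F604 it changed by -0.33 (adjusted p = 0.0745). Prkag2 fell from 66.2 ± 6.82 to 51.3 ± 3.4 CPM (-0.37 ± 0.09, adjusted p = 0.00711). With library totals alone as the scale, both changes were larger and neither was called (Prkag2 -0.42, adjusted p = 0.0803, and Mapkapk2 -0.49, adjusted p = 0.0533). Of the cell type markers, 2 of 5 lymphocyte markers fell (10.97 to 16.83 CPM in controls and 8.81 to 11.93 CPM in exposed kidneys), as did 1 of 4 endothelial and 1 of 4 proliferation markers, and their part was not tested.

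In lung Prkcd, the PKC form that rose in liver, fell with both compounds. At 500 ppm of 1,2-DCB it was the single kinase probe called of 34, beside 8.85% of all probes (4.16% rising, 4.68% falling). Controls were at 46.7, 55.1 and 72.2 CPM (lowest, median, highest) and the 4 exposed lungs at 46.6, 29.6, 34.5 and 35.2 CPM, all below every control (-0.61 ± 0.13, adjusted p = 0.000819), although the highest of them missed the lowest control by little. Beside this fall, 3 of 5 fibroblast and matrix markers fell (sums of 1767 to 3173 CPM in controls and 846.5 to 1189 in exposed lungs) and 2 of 4 proliferation markers, while 1 of 5 macrophage markers rose and 0 of 4 pan-leukocyte markers was called. At 800 ppm of 1,4-DCB it went from 47.8, 55.8 and 70.2 CPM in 8 controls to 44.6, 44.5, 48.3, 36.9 and 46.6 CPM (-0.37 ± 0.09, adjusted p = 0.0138), and without rat F604 it was not called (-0.31, adjusted p = 0.0568). There 3 of 34 kinase probes fell, beside 5.91% of all probes (2.87% rising, 3.04% falling). The others were Pik3r1, from 1041 ± 129.7 to 731 ± 94.9 CPM (-0.51 ± 0.10, adjusted p = 0.00219) with 4 of 5 below all controls, and Mapk14, from 175 ± 19.8 to 143.7 ± 7.82 CPM (-0.28 ± 0.07, adjusted p = 0.0103). None of these 3 was called when the libraries that the submitters marked as unused were added, with Pik3r1 then at -0.45 (adjusted p = 0.0638), Prkcd at -0.32 (adjusted p = 0.318) and Mapk14 at -0.24 (adjusted p = 0.64). With library totals alone as the scale, the median probe shifted by -0.159, 4 kinase probes fell and 10.6% of all called probes rose, against 48.6% on the TMM scale. In the same lungs 2 of 4 neutrophil markers rose (520 to 869.4 CPM in controls and 840 to 1752 in exposed lungs) and 1 of 2 red cell markers (5521 to 10070 and 9161 to 13880 CPM), while 1 of 4 endothelial markers (1519 to 2069 and 1276 to 1567 CPM) and 1 of 5 proliferation markers fell. The part of the markers in the lung results was not tested.

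In heart 1 of 33 kinase probes was called for each compound. Pik3r1 rose at 500 ppm of 1,2-DCB, where 12% of all probes were called (5.16% rising, 6.79% falling). It was at 418, 505.1 and 622 CPM in the lowest, median and highest control heart and at 525, 806, 608, 614 and 697 CPM in exposed hearts (0.36 ± 0.10, adjusted p = 0.0114). Only 2 of 5 exposed hearts were above all controls, and the call was lost without rat F602 (0.27, adjusted p = 0.0967) and with library totals alone as the scale (0.33, adjusted p = 0.117). Beside it 4 of 5 fibroblast and matrix markers fell, with sums of 2128 to 3455 CPM in controls and 776.4 to 1079 in exposed hearts, and their part was not tested. At 800 ppm of 1,4-DCB, where 6.86% were called (3.07% rising, 3.8% falling), Mapk9 (JNK2) rose from 139.5 ± 6.71 to 157 ± 8.34 CPM (0.18 ± 0.05, adjusted p = 0.017), a call lost without rat F601 (0.14, adjusted p = 0.105), F603 or F605 and with library totals alone (0.12, adjusted p = 0.378), on which 19.8% of all called probes rose, against 44.7% on the TMM scale.

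In ovary Prkaa2, a catalytic subunit of AMPK, rose at 500 ppm of 1,2-DCB, where 2.91% of all probes were called (1.52% rising, 1.39% falling). Controls were at 2.13, 4.1 and 6.3 CPM (lowest, median, highest) and exposed ovaries at 7.62, 7.81, 6.46, 8.83 and 10.2 CPM, all above every control (1.01 ± 0.24, adjusted p = 0.0167). The adjusted p was 0.0518 without rat F604. Beside this rise, the pan-leukocyte marker Coro1a (-0.72), the matrix marker Col1a2 (-0.67) and Apoa1 of the hepatocyte list (-2.79) fell. No cell type marker rose there, and the part of these markers was not tested. At 800 ppm of 1,4-DCB Prkag1 and Mapk14 rose, 2 of 34 beside 8.47% of all probes (4.23% in each direction). Prkag1 was at 68.2, 80.2 and 93.7 CPM in the lowest, median and highest control and at 120.1, 142.1, 118.5, 113.9 and 113.1 CPM in exposed ovaries, all above every control (0.56 ± 0.08, adjusted p = 3.76e-05). Mapk14 went from 174 ± 21.5 to 216 ± 14.6 CPM (0.31 ± 0.08, adjusted p = 0.0124), and was not called without rat F602 (0.27, adjusted p = 0.0664). In those ovaries 2 of 5 ovarian markers rose, with sums of 2377 to 3776 CPM in controls and 3866 to 7238 in exposed rats. The endothelial marker Kdr rose too (0.62). The part of these markers was not tested.

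**Figure D3:**
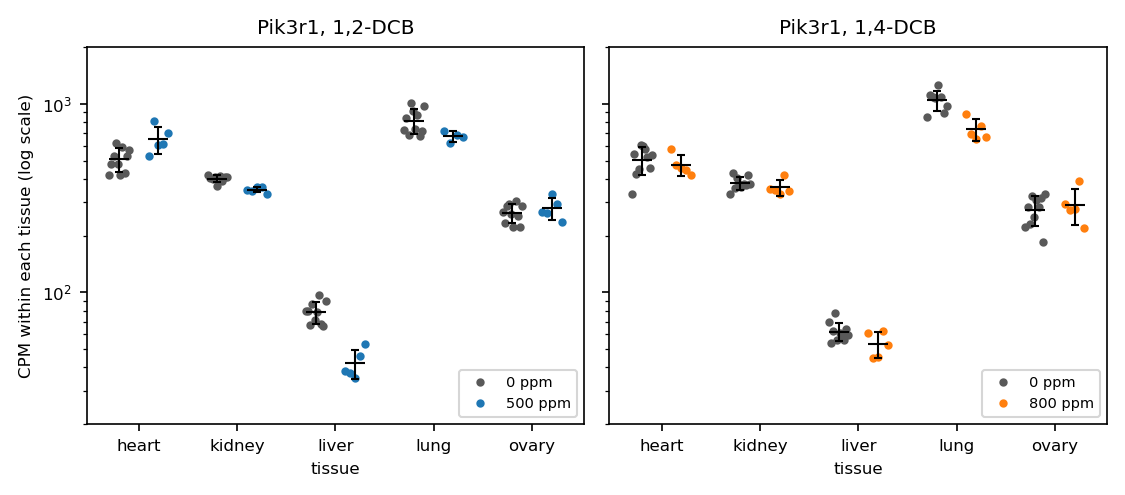
Pik3r1 level (CPM within each tissue and compound, log axis) by tissue for controls (grey) and the top concentration (500 ppm of 1,2-DCB in blue, 800 ppm of 1,4-DCB in orange), 1 point per rat with mean ± SD. The exposed rats lie below all controls in liver and kidney for 1,2-DCB, 4 of 5 lie below in lung for 1,4-DCB, and 2 of 5 lie above all controls in heart for 1,2-DCB.

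Below the top concentrations, calls of kinase probes were found with 1,2-DCB at 250 ppm in liver (above) and at 1 ppm in heart, and in no other comparison. In most of these 0 probes of any kind were called. The exceptions for 1,2-DCB were kidney at 10 ppm (0.381% of probes) and 250 ppm (0.0846%), liver at 10 ppm (0.0495%) and 100 ppm (2.13%), lung at 30 ppm (0.0434%) and ovary at 250 ppm (0.0435%), and for 1,4-DCB kidney (0.215%) and liver at 400 ppm.

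The calls in heart at 1 ppm of 1,2-DCB rested on 2 rats. There 5.64% of all probes were called (4.25% rising, 1.39% falling), and the kinase probes among them were Prkag2 (1.27 ± 0.26, adjusted p = 0.0058) and Prkar2b (0.60 ± 0.17, adjusted p = 0.0277). Prkag2 was at 97.4, 105.8 and 170.5 CPM in the lowest, median and highest control heart. It was at 226 CPM in rat F101, 788 CPM in rat F102 and 128.7 to 136.4 CPM in the other 3 rats. Those 3 lie within the control range, whose top is control F2 alone, with the next control at 135.6 CPM. Prkar2b was at 21.9 to 32.8 CPM in controls, at 70.1 CPM in F101 and 49.6 CPM in F102, and at 26.2, 28.02 and 27.7 CPM in the rest. The same 2 hearts stood apart in cell type markers. Summed cardiomyocyte markers were at 257000 to 408000 CPM in controls, 168000 in F101, 57200 in F102 and 308000 to 345000 in the other 3. Summed smooth muscle markers were at 1080 CPM in F101 against 49.1 to 98.1 in controls, and fibroblast and matrix markers at 6640 in F101 and 3770 in F102 against 2130 to 3460. The part of these markers in the 2 calls was not tested. Without F101 and F102, chosen as a setting after these values were seen, Prkag2 changed by 0.17 (adjusted p = 0.998) and Prkar2b by 0.03 (adjusted p = 0.998), and neither was called. Neither was called at any higher concentration in heart, and no heart at a higher concentration was above 164 CPM of Prkag2.

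**Figure D4:**
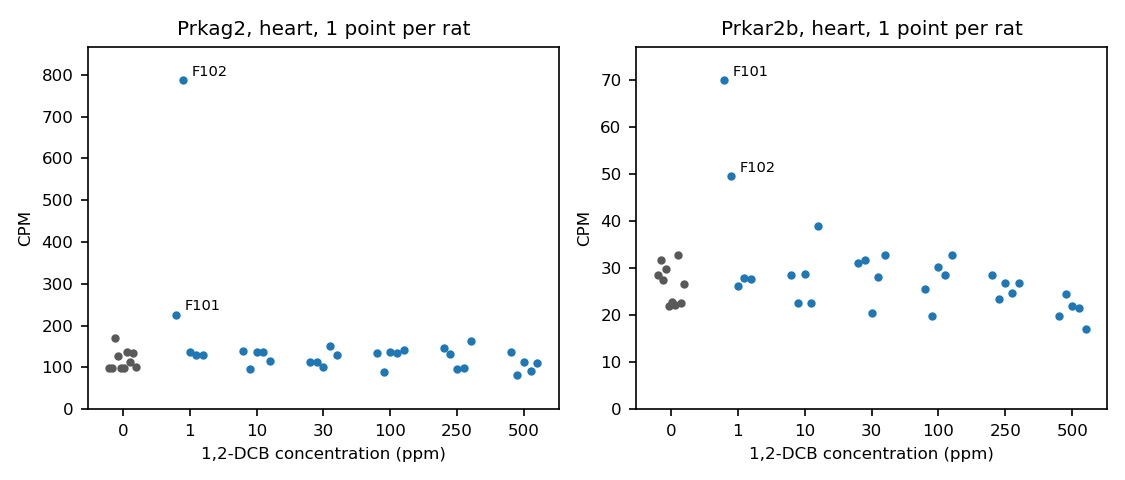
Heart level (CPM, linear axis from 0) of Prkag2 and Prkar2b against 1,2-DCB concentration (ppm, evenly spaced groups), 1 point per rat with controls in grey and rats F101 and F102 named. At 1 ppm, F102 is at 788 CPM of Prkag2 and F101 at 226, above all controls, with the other 3 rats at 128.7 to 136.4.

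Whether the response of liver differed from that of the other tissues was tested as the difference of the changes in a joint fit of each compound. For 1,2-DCB at 500 ppm, of 34 kinase probes 15 differed between liver and heart (38.7% of all probes did), 14 between liver and kidney (40.1%), 14 between liver and lung (38.9%) and 14 between liver and ovary (41.4%). These shares lie near the background. The change of Prkaca was lower in liver than in every other tissue. It differed by -1.44 ± 0.19 against heart, -1.59 ± 0.19 against kidney, -1.48 ± 0.19 against lung and -1.21 ± 0.19 against ovary. The same held for Pik3r1 (-1.46, -0.85, -0.81 and -1.14 in the same order) and Prkcb (-0.92, -0.59, -0.97 and -1.41). The changes of Prkcd (1.16, 0.86, 1.45 and 0.74) and Prkaa1 (0.68, 0.49, 0.63 and 0.57) were higher in liver than in each other tissue. Such differences also hold the change in the other tissue, as Pik3r1 rose in heart and Prkcd fell in lung. For Prkag2 the difference was called against heart (-0.75), kidney (-0.71) and lung (-0.98), and not against ovary (-0.31, 95% interval -0.79 to 0.16).

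For 1,4-DCB at 800 ppm, 4 kinase probes differed between liver and heart (14.8% of all probes), 4 between liver and lung (15.3%), 13 between liver and ovary (21.1%) and 0 between liver and kidney (11.6%). For the last, 4 had an unadjusted p below 0.05 in the same edgeR test, and 3 were called when the rat was a block in the fit, which pairs tissues of the same animal. Every called kinase difference was toward a lower value in liver. The median difference over all probes was negative too, at -0.06 to -0.12 (log2), beside -0.19 to -0.41 over the kinase probes. The directions of the calls over all probes were not counted. For neither compound were the tissue differences refitted with library totals alone as the scale. In the fits of single tissues that scale shifted the median probe by 0.087 in liver and -0.159 in lung at 800 ppm of 1,4-DCB. At 500 ppm of 1,2-DCB it did so by 0.401 in liver and -0.115 in kidney. Prkcb was called against heart (-0.77), lung (-1.002) and ovary (-0.86), and so was Mapkapk2 (-0.78, -0.81 and -0.42). In the 13 against ovary, Prkag1 (-0.63) and Mapk14 (-0.39) are also the genes that rose in ovary.

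The compounds were compared directly where doses matched, at 1 and 10 ppm in each of 5 tissues, as the difference of changes against their own controls. Of these 10 comparisons, 1 kinase probe in 1 comparison was called, Prkag2 in heart at 1 ppm (1,2-DCB minus 1,4-DCB 1.24 ± 0.30, adjusted p = 0.0168, with 1.03% of all probes called). It was not called without rat F101 or F102 of the 1,2-DCB group or without rat F104 of the 1,4-DCB group. The 5 hearts at 1 ppm of 1,4-DCB were at 154.6, 141.9, 116.6, 97.5 and 99.7 CPM beside controls of 99.3 to 147.2. In heart at 10 ppm 1.17% of all probes and no kinase probe were called, and in the other 4 tissues 0 probes were called at either concentration. At an unadjusted p below 0.05 the same edgeR tests gave 0 to 6 kinase probes per comparison.

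A missed threshold does not show that the compounds act alike. In liver at 10 ppm the 95% interval of the difference ran from -0.62 to 0.11 for Prkaca and from -0.65 to 0.004 for Pik3r1. It stayed within ±1 (log2) for 22 of 30 kinase probes at 1 ppm and 21 of 30 at 10 ppm in liver. At the top concentrations the doses differ (500 and 800 ppm), so the values stand only side by side: Prkaca in liver changed by -1.39 with 1,2-DCB and -0.32 with 1,4-DCB, Mapkapk2 in kidney by -0.56 and -0.43, and Prkcd in lung by -0.61 and -0.37.

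In control rats, the kinase probes differed in level between tissues, tested with 20 libraries each of heart, liver and ovary, 19 of kidney and 18 of lung. A probe is called marked where it was at least 2-fold higher (log2 difference above 1) than in every other tissue with adjusted p below 0.05. In heart 4 of 34 were marked (6.01% of all probes), Mapkapk2, Akt1, Prkaca and the class II PI3K Pik3c2b. In every other tissue 1 of 34 was marked, Prkcq in kidney (5.52%), Mapk9 in liver (13%), Prkch in lung (8.62%) and Prkar2b in ovary (7.85%). These levels are on the joint scale of all tissues.

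Prkar2b, the type II beta regulatory subunit of PKA, had the widest range. Its median was 898 CPM in ovary (lowest 314, highest 1430), 94.6 in lung, 34.4 in kidney, 21.3 in heart and 3.34 in liver, and each step in that order passed the test. Mapk9 was at a median of 277 CPM in liver (210 to 334), 2.27-fold above heart by the fit, and at 96.4 in ovary, 93.1 in kidney and 56.6 in lung, with no difference between ovary and kidney (adjusted p = 0.296). Mapkapk2 was at 123.7 CPM in heart (103.1 to 152.1), 45.7 in kidney and 22.1 to 24.3 in the other 3, which did not differ in order. Akt1 was at 296 CPM in heart (233 to 347) and between 77.9 (kidney) and 115.5 (ovary) elsewhere, and Prkaca at 333 CPM in heart (289 to 398), with ovary (120.6) and liver (123.9) not different (adjusted p = 0.836). Prkcq, a PKC form best known from T cells, was at 7.46 CPM in kidney (4.69 to 11.1) and at 1.49 or less elsewhere. The summed lymphocyte markers, 5 of 10 on the panel, were at 9.12 to 14.9 CPM in kidney and 12.1 to 22.4 in ovary. Their median was lowest in kidney, and the part of lymphocytes in the Prkcq level was not tested. Prkch was at 8.61 CPM in lung (4.57 to 22.1) and 4.03 in heart.

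These marks depend on the scale. With library totals alone, a setting added after the data were seen, the median probe was 2.85 higher (log2) in heart than in liver, against 0.03 on the joint TMM scale. Then Mapkapk2 was the single mark left in heart, none was left in liver, Akt2 and Mapkapk3 joined Prkar2b in ovary, and Prkcq and Prkch kept their marks.

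**Figure D5:**
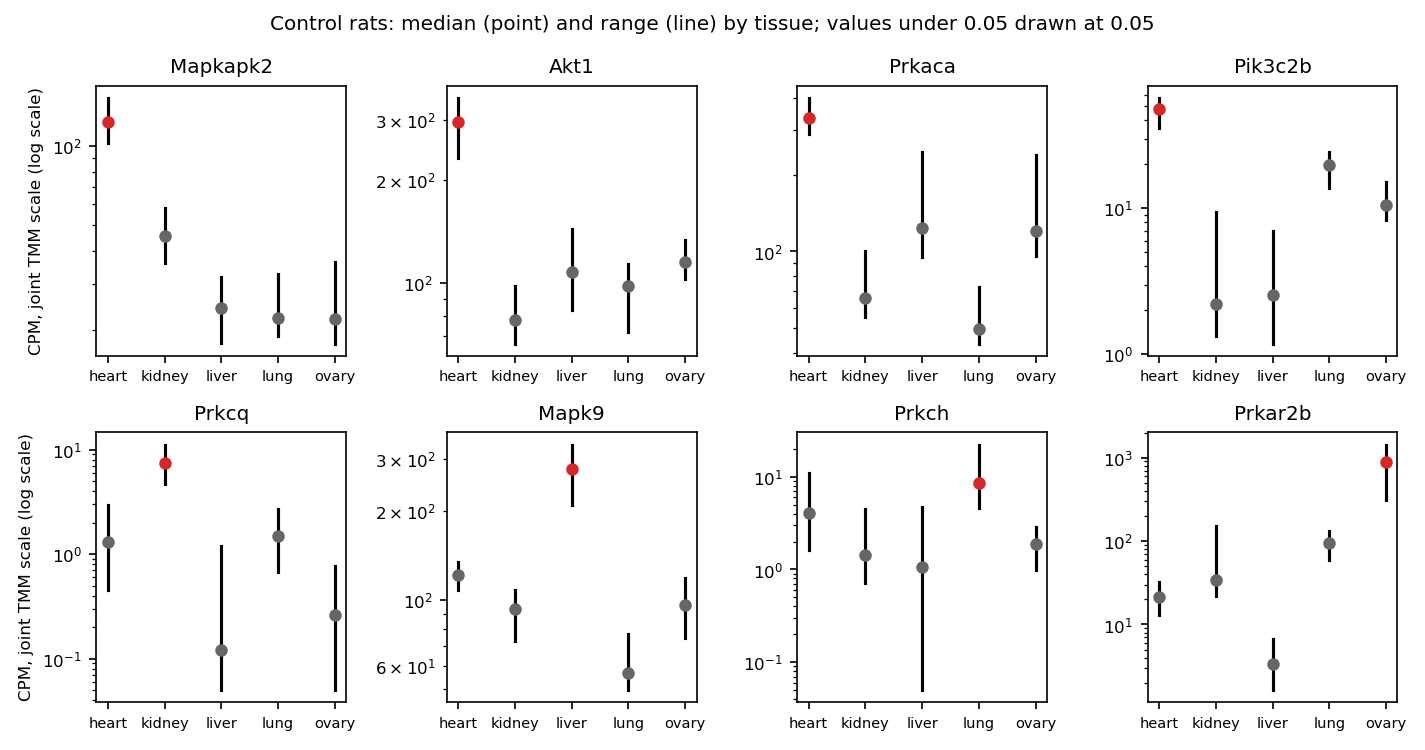
Level in control rats (CPM on a joint scale of the 5 tissues, log axes that differ between panels) of the 8 kinase probes marked in a tissue, as the median (point, red in the marked tissue) and range (line) over 18 to 20 rats, with values under 0.05 drawn at 0.05. Prkar2b spans from 3.34 CPM in liver to 898 CPM in ovary, and Mapk9 is the only 1 of the 8 that is highest in liver.

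The kinase probes that were tested and never called at a top concentration included Mapk3, Mapk12, Map2k5, Mapkapk3, Akt2, Prkab2 and Prkch, each tested in all 10 comparisons. Map2k5, the kinase that activates ERK5, stayed between -0.08 and 0.08 (log2) in all 10, and Mapk3 between -0.26 and 0.18. Mapk10, a JNK form with no more than 77 counts in any library, lay between -0.85 and 1.38 without a call, and Pik3c2b, with a median of 415 counts, between -0.91 and 0.13.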

How the data were processed

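The authors deposited 1 table of read counts per probe and library, named in the file as raw and adjusted for attenuation (the damping of abundant probes), with replicates not pooled. Bowtie 1.3.1 is named in the submitters' processing notes, while no source gives the alignment settings or the probe reference. The 9 libraries that the labels mark as not used were left out. Their effect is given in the closing section.

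From the deposited counts, libraries were grouped by tissue, compound and concentration from the labels. In each tissue and compound, edgeR 4.0.16 (R 4.3.3) was fitted to all 7 groups with TMM scaling, filterByExpr and the robust quasi-likelihood test, with Benjamini-Hochberg adjustment over all probes tested. DESeq2 1.42.0, limma 3.58.1 (voom), other scalings and filters, and leaving out each rat in turn were alternatives. Tissue differences came from a joint fit over 5 tissues. The rat numbers in the labels pair tissues of the same animal, and the rat as a block was an alternative. On simulated counts for 500 ppm of 1,2-DCB in liver (1979 probes), the test recovered 80% of changes of 0.5 and 100% of changes of 1 (log2). For the liver minus kidney difference it recovered 29% and 94%. In each run 100 probes were changed at each size, drawn only from probes with high counts, and all probes had the same spread. In the data, by contrast, 67.8% of the probes tested were called in liver at 500 ppm. These shares therefore do not hold for kinase probes at low counts.

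Kinase probes and pathway lists were chosen with earlier results of these data known. The rule for names took called kinase probes reaching a group mean of 20 CPM in liver, all called ones elsewhere and marked ones in controls. It also took those called at a lower concentration or in 4 or more of the top comparisons. From each pathway list it took up to 2 called genes per direction in liver. The other kinase probes named for liver were chosen after their values were seen, as were the list genes named for lung, kidney and ovary. Promoter windows are from RefSeq (GRCr8). Probe sequences were not used here. For 1 kinase probe the values are not reported here and it is not drawn, although it is included in the counts.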

Additional observations from a re-analysis of the deposited data

Results flagged for a closer look

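In 5 of 85 groups of 4 to 10 rats checked, 1 rat lay apart from the rest of its group by Dixon's criterion, which chance flags in about 1 of 20 groups. In heart, rat F102 at 1 ppm of 1,2-DCB was at 788.1 CPM of Prkag2, with the next rat at 226.4, and control F2 was at 170.5 CPM, with the next at 135.6. In liver, rat F503 at 250 ppm of 1,2-DCB was at 22.59 CPM of Prkaca (next 17.89) and rat F504 at 50.87 CPM of Pik3r1 (next 63.02). In ovary, rat F602 at 800 ppm of 1,4-DCB was at 142.1 CPM of Prkag1 (next 120.1).

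The change at the top concentration differed between liver and another tissue, by the test of that difference, for 15 kinase probes against heart and 14 each against kidney, lung and ovary with 1,2-DCB (38.7%, 40.1%, 38.9% and 41.4% of all probes, in the same order, and 34 kinase probes tested in each), and for 4 against heart, 4 against lung and 13 against ovary with 1,4-DCB (14.8%, 15.3% and 21.1% of all probes). The change of Prkag2 in heart at 1 ppm differed between the compounds by 1.241 (log2, 1,2-DCB minus 1,4-DCB), with rat F102 in the 1,2-DCB group.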

How the results depend on the processing

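Of the counts of kinase probes recomputed under other settings, 35 moved by over 1.5 times and the rest did not. Beyond what each setting changes, the cause was not tested. A filter at a mean of 20 CPM, which tests fewer probes, left 2 calls in 1,2-DCB liver at 500 ppm, 0 at 250 ppm, 0 in 1,4-DCB liver, 2 in 1,2-DCB ovary, 9 for liver minus lung (1,2-DCB), 1 for liver minus lung and 3 for liver minus ovary (1,4-DCB), and 0 marks in kidney. DESeq2 called 8 in 1,4-DCB liver, 3 in 1,2-DCB ovary, 2 in 1,2-DCB heart and 1 over the other lower 1,2-DCB concentrations, and DESeq2 size factors left 0 marks in lung. Library totals alone gave 0 calls in heart with either compound, 0 in 1,4-DCB kidney, 2 in 1,4-DCB liver, 2 in 1,2-DCB ovary, and 1, 0 and 3 marks in heart, liver and ovary. Fits without the other concentrations gave 0 in heart at 1 ppm of 1,2-DCB, 0 in 1,4-DCB heart, 2 in 1,2-DCB ovary and 1 in 1,4-DCB ovary, and voom 2 in 1,2-DCB ovary. Adding the libraries marked as not used gave 0 in 1,4-DCB lung at 800 ppm, 11 over the lower 1,4-DCB concentrations, 8 for liver minus ovary (1,4-DCB) and 2 marks in lung. Marks at a log2 difference of 2 numbered 0 in heart, liver and lung. Mapk14 in 1,2-DCB liver reversed to 0.145 with the 20 CPM filter and to 0.166 with library totals, and Akt1 to 0.144 with library totals. With the animal as replicate block, liver minus kidney with 1,4-DCB gave 3 calls in place of 0, the other tissue differences 16, 15, 14 and 14 (1,2-DCB: heart, kidney, lung, ovary) and 5, 6 and 14 (1,4-DCB: heart, lung, ovary), and the marks 4, 1, 1, 1 and 1 as before. Leaving out 1 rat at a time (both F101 and F102 in heart as well) gave, for 1,2-DCB at 500 ppm, 13 to 18 calls in liver, 5 to 7 in kidney, 0 to 2 in heart, 1 to 2 in lung and 0 to 2 in ovary, with 1 to 3 in liver at 250 ppm and 0 to 4 in heart at 1 ppm. For 1,4-DCB it gave 3 to 8 in liver, 1 to 2 in kidney, 0 to 1 in heart, 2 to 3 in lung and 1 to 4 in ovary. The liver differences, for which no control was left out, ranged from 10 to 16 (1,2-DCB). For 1,4-DCB they ranged from 2 to 5 against heart, 0 to 1 against kidney, 2 to 5 against lung and 7 to 12 against ovary. The compound difference in heart at 1 ppm, again without leaving out controls, ranged from 0 to 1. At low counts per library (Pik3ca, Prkacb, Pik3c3, Prkar2b and Mapkapk5 in the tissues named) depth limits the precision.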
